A study of Mus musculus with 12 samples.

Results

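Heat shock proteins and their partner chaperones were examined as a set of 10 genes, Hspa1a, Hspa1b, Hsph1, Dnajb1, Hsp90aa1, Hspa8, Hsp90ab1, Hspd1, Hspe1 and Hspa5, out of 34079 genes with exonic values. The genes were listed by name, and all exonic and intronic values of the transcripts that GENCODE assigns to them were taken, which gave 40 exonic and 38 intronic entries from 50 annotated transcripts. Exonic values passed the filter on low abundance, a mean of at least 20 over the libraries, for 8 of the 10 genes, with Hspa1a and Hspa1b below it. Hspa1a and Hspa1b have no introns, and of the other 8 genes Dnajb1 had intronic values below the same filter. The genes came from mouse DTCM23/49 XY embryonic stem cells (mESCs) grown in serum and LIF, a single line whose culture was split once to give 2 biological replicates. All cells, those giving total RNA included, had received the uridine analog 4-thiouridine (4sU) at 200 µM for 15, 30 or 60 min. 4sU enters RNA that is made while it is present, so that this RNA can be biotinylated and pulled down as labeled RNA. Total and labeled RNA at each of the 3 labeling times formed 6 groups of 2 libraries, 12 in all, and no library came from cells without 4sU.

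Chaperones bind unfolded or partly folded proteins and help them to reach or keep their native shape. HSP70 proteins bind short hydrophobic stretches in a cycle driven by ATP, J-domain proteins start that cycle and nucleotide exchange factors reset it, while HSP90 proteins act later on clients such as kinases and hormone receptors. Under heat or other proteotoxic stress the transcription factor HSF1 binds heat shock elements, inverted repeats of nGAAn, and turns on the inducible members. Hspa1a, Hspa1b, Hsph1, Dnajb1 and Hsp90aa1 are usually counted as inducible, and Hspa8, Hsp90ab1, Hspd1, Hspe1 and Hspa5 as constitutive, although Hspd1, Hspe1 and Hspa5 respond to stress of their own compartments. The grouping is textbook background and was not derived from the values.

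Promoters with motifs of the stress responses are shown first, for Hspa1a and Hspa1b, which had the lowest values of the set, for the divergent pair Hspd1 and Hspe1, and for Hspa5. Promoter entries were found in RefSeq (GRCm38.p6) for 7 of the 10 genes, and Hspa8, Hsp90aa1 and Hsp90ab1 were not matched. Hspa1a lies at chr17:34969359-34972156 and Hspa1b at chr17:34956429-34959238, both on the minus strand. The 250 bases before their start sites, chr17:34972157-34972406 and chr17:34959239-34959488, differ at 3 positions, and each holds 1 match to a heat shock element of 2 units (GAANNTTC or TTCNNGAA, read on both strands), beginning 104 bases before the start site and written in capitals.
Hspa1a: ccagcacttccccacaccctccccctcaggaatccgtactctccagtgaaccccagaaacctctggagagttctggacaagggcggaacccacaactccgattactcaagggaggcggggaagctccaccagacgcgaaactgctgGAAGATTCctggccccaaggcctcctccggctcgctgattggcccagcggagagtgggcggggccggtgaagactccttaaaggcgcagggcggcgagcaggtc
Hspa1b: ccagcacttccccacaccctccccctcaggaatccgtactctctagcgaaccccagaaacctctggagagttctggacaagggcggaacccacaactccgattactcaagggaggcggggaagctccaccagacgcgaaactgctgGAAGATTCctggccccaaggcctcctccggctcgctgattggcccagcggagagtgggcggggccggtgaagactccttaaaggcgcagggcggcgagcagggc
Hspd1 (chr1:55077833-55088243, minus strand) and Hspe1 (chr1:55088148-55091317, plus strand) are transcribed away from each other, and 215 bases separate a pair of their RefSeq start sites, the Hspd1 start at position 55087932 and the Hspe1 start at 55088148. RefSeq also has an Hspd1 start at 55088243, past that of Hspe1, and the window of this start holds no match. A block of 3 overlapping matches to the 2-unit element lies between the first pair, beginning 89 bases before the Hspe1 start site, and it includes 2 matches to the longer element of 3 units (GAANNTTCNNGAA or TTCNNGAANNTTC). The 30 bases at chr1:55088053-55088082 are printed on the plus strand with that block in capitals.
Hspd1-Hspe1: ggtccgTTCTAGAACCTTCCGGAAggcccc
Hspa5 lies at chr2:34772090-34776529 on the plus strand. The 250 bases before its start site, chr2:34771840-34772089, hold no heat shock element of 2 units but 1 endoplasmic reticulum stress element (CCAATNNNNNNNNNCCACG, read on both strands), beginning 65 bases before the start site and given in capitals.
Hspa5: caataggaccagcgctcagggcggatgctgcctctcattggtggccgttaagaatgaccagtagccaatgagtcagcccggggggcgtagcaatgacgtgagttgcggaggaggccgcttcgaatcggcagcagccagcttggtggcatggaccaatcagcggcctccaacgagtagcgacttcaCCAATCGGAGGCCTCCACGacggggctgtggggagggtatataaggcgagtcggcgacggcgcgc
Among 32851 RefSeq promoter windows, 15.1% held the 2-unit heat shock element, 0.603% the 3-unit element and 0.119% the endoplasmic reticulum stress element. A 2-unit match is therefore common, and every match is a description of letters rather than of a bound site. Hsph1 (chr5:149616843-149636498) held 3 matches to the 2-unit element, on both sides of its start site, and 1 match to the 3-unit element. These counts were the same in the windows of both its RefSeq start sites. The windows of Dnajb1 (chr8:83608175-83612653) held none of these letters. The other members lie at chr12:110691036-110696395 (Hsp90aa1), chr17:45567778-45573261 (Hsp90ab1) and chr9:40801276-40805202 (Hspa8).

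The values are length-normalized RSEM abundances, about 20 times TPM, with exons and introns of a library scaled together to a fixed total. Because of that scaling the files keep no sequencing depth, and no counting error could be given. All 10 mESC markers passed the filter on low values, with summed exonic abundances of 31714 to 38033 in total RNA and 27040 to 39429 in labeled RNA. In exons none of 6 fibroblast, 5 endoderm or 3 mesoderm markers passed it, Col3a1, Postn, Lum, Dcn and Afp having no exonic value in any library, while 3 neuroectoderm markers passed with summed abundances of 190.0 to 444.5. In introns 1 endoderm marker, Gata4, passed the filter, with a mean of 166.8. The intronic share of abundance, which marks unspliced RNA, was 6.52% to 7.40% in the 6 total RNA libraries. In labeled RNA it was 14.8% and 7.23% at 15 min, 9.33% and 10.7% at 30 min, and 13.9% and 6.98% at 60 min in replicates 1 and 2. Labeled replicate 2 at 15 min and at 60 min thus lay inside the range of total RNA. Labeled against total RNA is also given without both, for exonic abundance and, on 1 transcript a gene, for intronic abundance. For the other comparisons the fit without both is only part of the ranges given for libraries left out.

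Levels were compared between genes on 1 transcript each, the annotated transcript with the longest coding sequence, because the values are per length and overlapping isoforms of a gene repeat the same signal. Hsp90aa1, an HSP90 of the cytosol, was the most abundant member, with exonic abundances in total RNA from 23119 over a median of 29600 to 33679 (mean 28516 ± 4027, SD, n = 6). It ranked 3rd among 16526 genes with a value. Hspa8, the constitutive HSP70 of the cytosol, followed at 17137, 19062 and 20439 as lowest, median and highest value, and ranked 8th. Hsp90ab1, the constitutive HSP90, ranged from 10920 over 11765 to 14362. None of these 3 ranges overlapped with the next, so the gene usually called inducible HSP90 exceeded the constitutive one 1.83 to 3.07 times in every total RNA library. In labeled RNA the ratio was 2.06 to 3.77.

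The mitochondrial chaperonin Hspd1 (HSP60) had exonic abundances in total RNA of 4867, 5390 and 5814 as lowest, median and highest value. Its co-chaperonin Hspe1 (HSP10) ranged from 2076 over 2553 to 2760. Hspa5, the HSP70 of the endoplasmic reticulum also known as BiP, ranged from 989.9 over 1490 to 1810. Hsph1 (HSP110), a nucleotide exchange factor of HSP70, ranged from 534.0 over 714.4 to 855.8, and Dnajb1 (HSP40), a J-domain partner of HSP70, from 55.4 over 88.3 to 144.8. The ranges of neighbours in this order did not overlap from Hsp90aa1 down to Hspa1a. Only the last pair overlapped, with Hspa1a at 9.54 to 18.4 and Hspa1b at 6.35 to 10.2. The order of Hspe1 and Hspa5 depended on the use of 1 transcript. With sums over transcripts Hspa5 ranged from 3672 to 6384 in total RNA and lay above Hspe1 at 2435 to 3242.

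The stress-inducible HSP70 genes were therefore the lowest members, and 41.5% of the genes with a value lay below Hspa1a and 33.2% below Hspa1b. In total RNA Hspa1a was at 16.7 and 10.0 after 15 min, 18.4 and 13.5 after 30 min, and 9.54 and 13.2 after 60 min in replicates 1 and 2. In labeled RNA Hspa1a was at 12.3 and 20.8, 18.4 and 16.5, and 12.9 and 10.2 at the same times. The 60 min values lay below the 30 min values in both kinds of RNA, those at 15 min overlapped with both, and labeled and total values overlapped. Hspa1b was at 7.60 and 6.93, 10.2 and 7.12, and 6.35 and 6.62 in total RNA. In labeled RNA Hspa1b was at 9.23 and 12.8, 14.0 and 8.07, and 5.93 and 7.23. Hspa1b was thus lowest at 60 min in both kinds of RNA, and again labeled and total values overlapped. Hspa8 exceeded Hspa1a 1111 to 1911 times in total RNA and 817.1 to 1316 times in labeled RNA. The coding transcripts of Hspa1a and Hspa1b share long stretches, as 49.3% and 49.9% of their 100-base windows occur in the other gene, so the division of reads between the pair is uncertain. No such window of the other 8 members occurred in the protein-coding transcripts of another gene, and pseudogenes were not searched. The plot of abundance by gene shows these levels.

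**Figure D1:**
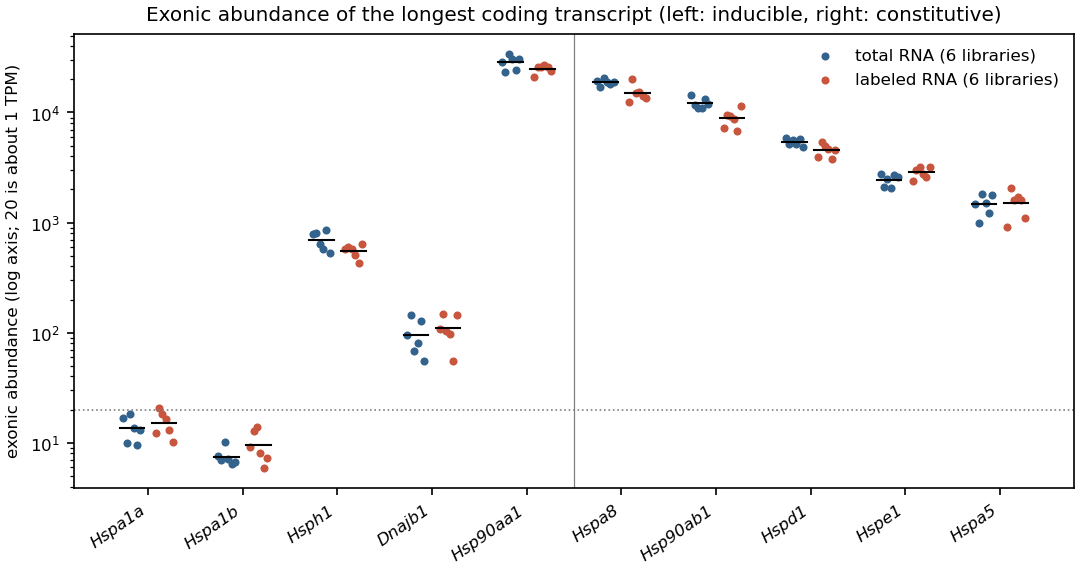
Exonic abundance (log axis) of the longest coding transcript of each of the 10 genes in 6 total RNA libraries (blue) and 6 labeled RNA libraries (red), with a bar at the mean and a dotted line at the filter of 20. Hsp90aa1, Hspa8 and Hsp90ab1 lie above all other members, whereas Hspa1a and Hspa1b lie around or below 20 in both kinds of RNA.

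Labeled and total RNA were next compared to ask which members are over- or under-represented among newly made RNA. In exons, 3 of the 8 tested members were lower in labeled RNA and none was higher, when limma was fitted on log2(value + 1) to sums over transcripts with labeling time as covariate. Of all 13977 genes tested, 11.6% were lower and 5.28% higher at an adjusted p under 0.05, 16.8% in either direction, and the median gene differed by -0.05. The median of the 8 members was -0.32, and 6 of them were negative against 54.4% of all genes. The 3 were Hsp90ab1, Hsp90aa1 and Hspd1, of which Hsp90aa1 is an inducible and the others are constitutive genes. The 3 tested inducible members had a median of -0.31 and the 5 constitutive members one of -0.32. A value from bulk RNA does not tell fewer expressing cells from less RNA per cell.

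Hsp90ab1 had summed exonic abundances of 55351 and 48143 at 15 min, 47406 and 48483 at 30 min, and 49869 and 49260 at 60 min in total RNA. In labeled RNA they were 31083 and 40796, 37632 and 35901, and 29865 and 43046. All 6 labeled libraries lay below all 6 total RNA libraries, which held for 7.28% of the genes tested and for no other member. The difference was -0.46 ± 0.10 (log2, SE; adjusted p = 0.0131, limma). On its longest coding transcript alone it was -0.47 (adjusted p = 0.0227), with labeled values of 6822 to 11469 overlapping total values of 10920 to 14362. In that fit 1 of 8 members was called, where 20.3% of 8773 genes were lower, 5.22% higher and 25.5% either. When this fit was also centred, 1082 genes were higher and 1495 lower in place of 458 and 1778, limma called 0 members, and Hsp90ab1 was at -0.35 (95% interval -0.70 to -0.01, adjusted p = 0.113). In the fit on sums over transcripts, Hsp90ab1 kept its call when any single library was left out.

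Hsp90aa1 had summed exonic abundances of 177125, 213228 and 232581 in total RNA and 142965, 174084 and 178192 in labeled RNA as lowest, median and highest value. The ranges overlapped only where the highest labeled library exceeded the lowest total one. The difference was -0.31 ± 0.08 (log2, SE; adjusted p = 0.0231, limma), and each of the 6 labeled libraries lay below the total RNA library of its time and replicate. On the longest coding transcript it was -0.19 (95% interval -0.42 to 0.04, adjusted p = 0.202).

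Hspd1 had summed exonic abundances of 6557, 7538 and 8084 in total RNA and 5123, 6008 and 7007 in labeled RNA as lowest, median and highest value. The ranges overlapped, and the difference was -0.32 ± 0.10 (log2, SE; adjusted p = 0.0472, limma). On the longest coding transcript it was -0.25 (95% interval -0.49 to -0.02, adjusted p = 0.10). Labeled and total RNA of one time and replicate number were also paired as a block, the pairing given by the sample labels. Hsp90ab1 alone then remained called (adjusted p = 0.0447, limma), as Hsp90aa1 (0.0854) and Hspd1 (0.115) missed the threshold, and the genes called fell from 2353 to 1270.

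The other 5 tested members did not pass the test in exons. Hspa8 differed by -0.36 (95% interval -0.62 to -0.09, adjusted p = 0.0666) and Hsph1 by -0.32 (-0.63 to -0.02, adjusted p = 0.134). Hspe1 differed by 0.24 (-0.01 to 0.48, adjusted p = 0.170), Dnajb1 by 0.21 (-0.36 to 0.78, adjusted p = 0.616) and Hspa5 by -0.02 (-0.43 to 0.39, adjusted p = 0.965). The intervals of Hspa8, Hsph1, Dnajb1 and Hspa5 all reach below the estimate of Hsp90aa1, so a decrease of that size was not excluded for them, whereas the interval of Hspe1 ends at -0.01. Without labeled replicate 2 at 15 and 60 min, 4 members were called, all lower: Hsp90ab1 (-0.58), Hspa8 (-0.42), Hspd1 (-0.39) and Hsp90aa1 (-0.34). Calls also rose over all 13977 genes, to 2051 lower and 1187 higher from 1615 and 738 with every library. Hspa1a (0.15, 95% interval -0.37 to 0.67) and Hspa1b (0.28, -0.27 to 0.82) entered the fit only without the filter, in which limma called 0 members and Hsp90ab1 had an adjusted p of 0.0543.

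The divergent pair Hspd1 and Hspe1 had estimates of opposite sign, and their ratio is given as a description with no test, since it was chosen after these values had been seen. On the longest coding transcripts, Hspe1 over Hspd1 was 0.475 and 0.406 at 15 min, 0.449 and 0.400 at 30 min, and 0.474 and 0.533 at 60 min in total RNA. In labeled RNA the ratio was 0.596 and 0.557, 0.637 and 0.598, and 0.690 and 0.710. Every labeled library lay above every total RNA library. The log2 ratio was -0.67 ± 0.13 in labeled and -1.14 ± 0.16 in total RNA (SD, n = 6 each), a difference of 0.47. Sums over transcripts gave a difference of 0.55.

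**Figure D2:**
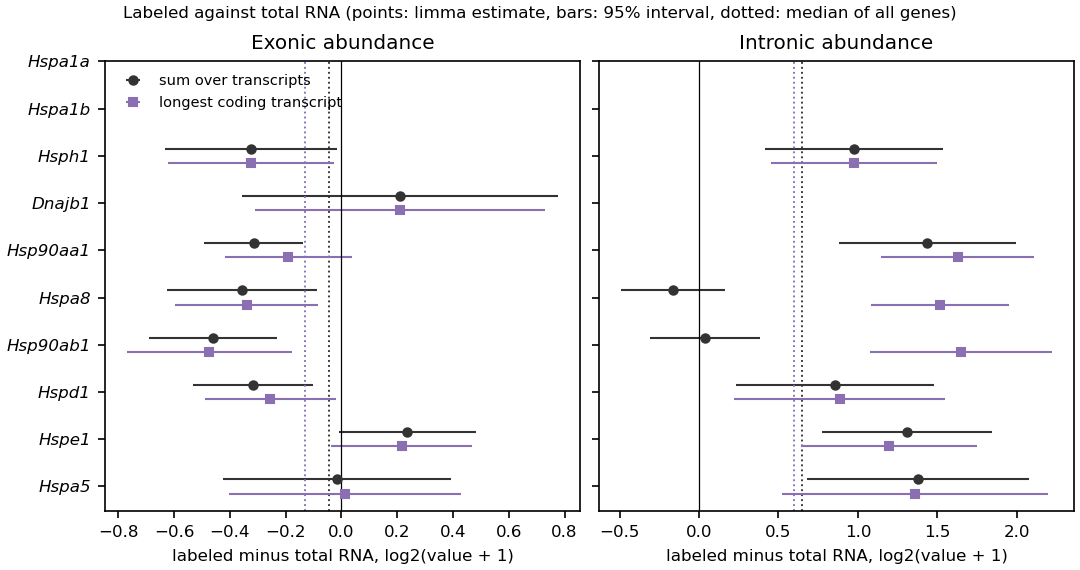
Difference between labeled and total RNA on the log2(value + 1) scale for exonic (left) and intronic (right) abundance, with limma estimates as points, 95% intervals as bars and the median of all genes as dotted lines, for sums over transcripts (circles) and the longest coding transcript (squares). Genes below the filter have no point, exonic estimates lie between -0.47 and 0.24, and the intronic estimates of Hspa8 and Hsp90ab1 move from near 0 to 1.52 and 1.65 when 1 transcript is used.

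In introns, most tested members were higher in labeled RNA. On the longest coding transcript these were Hsp90ab1, Hsp90aa1, Hspa8, Hspa5, Hspe1, Hsph1 and Hspd1, 7 of the 7 tested. Hspa5 had a mean of 13.4 in total and 40.1 in labeled RNA, so it passed the filter only through the group in which it was high, and its call is no support for the count. Intronic abundance was higher for 32.9% of the 3740 genes tested in this way and lower for 0.535%, with a median of 0.60 over all genes against 1.36 over the members. When each library was centred on the median of the genes tested, the genes split evenly, 534 higher and 553 lower, with a median of -0.05, and 5 of 7 members were called higher with a median of 0.71. Hsp90ab1 (1.00), Hsp90aa1 (0.98), Hspa8 (0.87), Hspa5 (0.71) and Hspe1 (0.55) were called, and Hsph1 (0.33, 95% interval 0.00 to 0.66) and Hspd1 (0.24, -0.12 to 0.60) were not. Introns are cut out and degraded soon after transcription, so that intronic signal mostly comes from precursor RNA. The choice of 1 transcript was made after the values had been seen. With sums over transcripts, 5 of 7 members were called higher, where 32.3% of 9117 genes were higher and 0.329% lower, and Hspa8 (-0.17, 95% interval -0.49 to 0.16) and Hsp90ab1 (0.04, -0.31 to 0.38) were not. Centring turned the 2946 higher and 30 lower genes of this fit into 756 and 956, and scaling intronic values to the same total gave 1560 and 338, with 3 members called higher in both, Hsp90aa1, Hspe1 and Hspa5. The median of the members went from 0.98 to 0.27 and 0.45. The sums of both genes were dominated by 2 isoforms with fewer exons. In Hspa8 these have 4 exons each against 9, and their introns had mean abundances of 6611 and 3698 in total RNA, against 78.2 for the longest coding transcript. In Hsp90ab1 they have 5 and 4 exons against 11, and their introns had 1850 and 640.8 against 36.8. Exons of another isoform cover 96.7% of the intron bases of the longest coding transcript of Hspa8, 42.5% of those of Hspa5, 29.1% of Hspe1, 21.7% of Hsp90aa1, 17.4% of Hsph1, 16.1% of Hsp90ab1, 14.2% of Dnajb1 and none of Hspd1. In these bases introns cannot be told apart from exons of the other isoforms.

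Hsp90ab1 introns had abundances of 42.8 and 32.6 at 15 min, 33.4 and 43.6 at 30 min, and 38.7 and 29.6 at 60 min in total RNA. In labeled RNA they had 179.9 and 84.4, 120.0 and 141.6, and 153.6 and 62.4. The lowest labeled library, replicate 2 at 60 min, still exceeded every total RNA library. The difference was 1.65 ± 0.27 (log2, SE; adjusted p = 0.000827, limma).

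Hspa8 introns ranged from 63.1 over a median of 76.4 to 91.7 in total RNA and from 150.1 over 232.0 to 274.3 in labeled RNA. Hsp90aa1 introns ranged from 75.1 over 100.2 to 120.7 and from 197.3 over 300.3 to 431.2. The groups did not overlap for either gene, as also seen for Hsp90ab1. On 1 transcript, 3 of the 7 members were thus separated, where 18.9% of all genes were. With sums over transcripts the separated members were Hsp90aa1, Hspe1 and Hspa5, while Hspa8 and Hsp90ab1 overlapped. For Hspa8, 96.7% of the intron bases are exons of another isoform, so its separation cannot be assigned to introns alone. The differences on 1 transcript were 1.52 ± 0.20 for Hspa8 (adjusted p = 0.000395) and 1.63 ± 0.23 for Hsp90aa1 (adjusted p = 0.000455, limma).

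Hspe1 introns had 16.7, 20.3 and 27.5 in total RNA and 25.9, 53.9 and 64.0 in labeled RNA as lowest, median and highest value, a difference of 1.20 ± 0.26 (adjusted p = 0.00366, limma). Hsph1 introns had 18.2, 19.6 and 25.8 against 25.5, 42.5 and 55.3, a difference of 0.98 ± 0.24 (adjusted p = 0.00811, limma). On 1 transcript the groups of both genes overlapped through labeled replicate 2 at 60 min alone. Hspd1 introns had 25.2, 39.6 and 47.2 against 28.3, 78.6 and 107.1, a difference of 0.88 ± 0.31 (adjusted p = 0.0408, limma). This was the member whose labeled replicate 2 at 60 min fell below its total RNA library, 28.3 against 40.9.

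Hspa5 introns varied most among labeled libraries. They had 63.8 and 21.4 at 15 min, 28.0 and 37.5 at 30 min, and 75.3 and 14.6 at 60 min, against 9.08 to 20.9 in total RNA. Both labeled libraries of low intronic share were the lowest. The difference was 1.36 ± 0.39 (log2, SE; adjusted p = 0.0170, limma), for a gene that passed the filter only through labeled RNA. Without both labeled libraries of low intronic share all 7 members were again called, with differences of 1.19 for Hsph1 to 2.00 for Hsp90ab1. Hspa5 was at 1.87 and is again no support for the count. Most genes were called in that fit, 3238 of 3740 higher and 28 lower, with a median of 1.00 over all genes. Dnajb1 introns, below the filter, had no value in 4 total RNA libraries and 1.06 and 1.47 in the others, against 1.16 to 6.29 in labeled RNA. Without the filter Dnajb1 differed by 1.97 (95% interval 1.16 to 2.79, adjusted p = 0.00406, limma), a value that depends on missing entries being set to 0.

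Set against the exons of the same transcript, introns amounted to a small percentage that differed by gene. In total RNA the median was 0.294% for Hsp90ab1, 0.324% for Hsp90aa1 and 0.400% for Hspa8. It was 0.698% for Hspd1, 0.859% for Hspa5, 0.878% for Hspe1 and 3.04% for Hsph1. Among the 7 members with introns over the filter, the 3 most abundant thus had the lowest percentages. Exonic abundance is the divisor of the percentage, so this order is partly built in. It did not hold with sums over transcripts. There the mean intronic and exonic abundances in total RNA were 10756 and 99724 for Hspa8, against 20.5 and 699.2 for Hsph1. Dnajb1, with introns below the filter and missing values taken as 0, had a median of 0% (0% to 2.65%) in total RNA and 4.52% in labeled RNA. In labeled RNA the medians were 1.45% for Hsp90ab1, 1.13% for Hsp90aa1, 1.49% for Hspa8, 1.63% for Hspd1, 1.96% for Hspa5, 1.81% for Hspe1 and 7.75% for Hsph1. The difference of the log2 ratio was past the threshold for all 7 members, from 0.98 ± 0.32 for Hspe1 (adjusted p = 0.0283) to 2.12 ± 0.34 for Hsp90ab1 (adjusted p = 0.000648, limma), where 32.4% of 3239 genes were called higher, 0.216% lower and the median gene was at 0.71. On this transcript Hspa5 passed the filter on introns only through labeled RNA, so its call is no support for this count either. With sums over transcripts 5 of 7 were called, against 26.8% of 7731 genes called higher and 27.0% in either direction, Hspa8 (0.19, 95% interval -0.38 to 0.76) and Hsp90ab1 (0.50, -0.11 to 1.11) being the exceptions. Centring turned 2071 higher and 20 lower genes into 468 and 410 in this fit, with 1 member called, Hsp90aa1 (1.03). On 1 transcript a gene it gave 314 and 302 genes and 3 members, Hsp90ab1 (1.38), Hspa8 (1.12) and Hsp90aa1 (1.08).

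**Figure D3:**
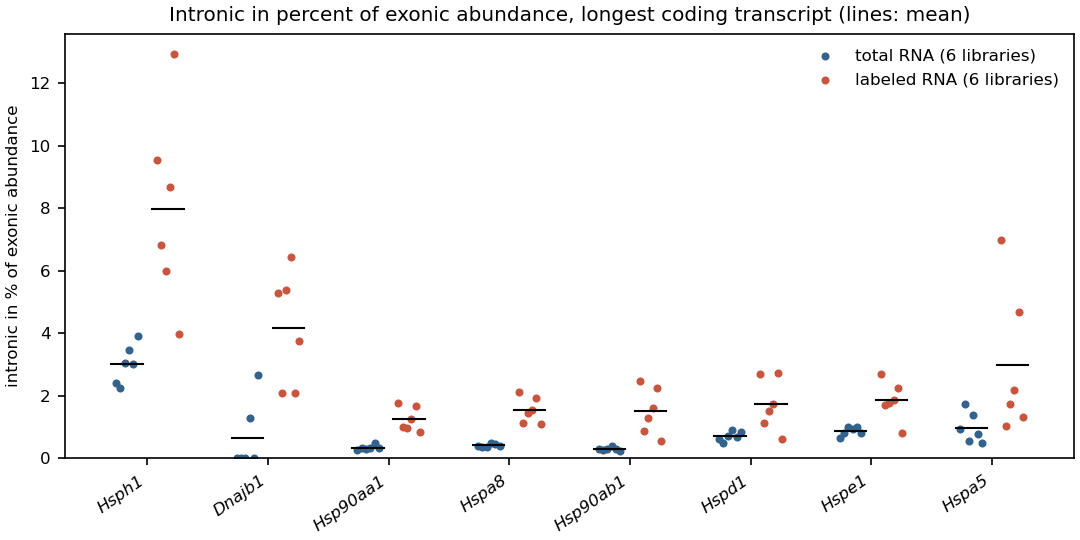
Intronic abundance in percent of exonic abundance of the longest coding transcript for the 8 members with introns, in 6 total RNA (blue) and 6 labeled RNA libraries (red), with bars at the mean. Hsph1 is highest in both kinds of RNA, and labeled replicate 2 at 60 min is the lowest labeled point for Hsph1, Hsp90aa1, Hspa8, Hsp90ab1, Hspd1 and Hspe1.

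The 3 labeling times also ask whether these stress genes changed between 15 min of 4sU and the later times. No library came from cells without 4sU, so a change within the first 15 min cannot be seen. No member passed the test in total or labeled RNA, in exons at 60 or 30 against 15 min or in introns at 60 against 15 min. In exons of total RNA limma called 0 of 13977 genes at 60 against 15 min (108 at an unadjusted p under 0.05), and in labeled RNA 0 (178 at an unadjusted p under 0.05). At 30 against 15 min it called 0 in total RNA (219 at an unadjusted p under 0.05) and 3 in labeled RNA, or 0.0215%, none of them a member. In introns limma called 0 of 9117 genes at 60 against 15 min in total RNA (39 at an unadjusted p under 0.05) and 0 in labeled RNA (11). When the change from 15 to 60 min was compared between labeled and total RNA, limma called 0 genes (162 at an unadjusted p under 0.05). Each count given at an unadjusted p under 0.05 is below the share of 0.05 that a calibrated test gives without any change. The tests over time were thus cautious, and the lack of a call is weak evidence for no change. Spread was estimated over all libraries together, so tests and intervals of total RNA also carry the spread of labeled RNA. Its part in the low counts was not tested. At 30 against 15 min the exonic differences of the 8 tested members ran from -0.65 (Dnajb1) to 0.46 (Hspa5) in total RNA and from -0.32 (Dnajb1) to 0.24 (Hspa5) in labeled RNA. At 60 against 15 min the intronic differences of the 7 tested members ran from -0.45 (Hspa5) to 0.41 (Hspe1) in total RNA and from -0.47 (Hspd1) to 0.35 (Hspa5) in labeled RNA, and all their intervals held 0.

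Dnajb1 spanned the widest range over time. Its exonic abundances in total RNA were 95.4 and 144.8 at 15 min, 68.5 and 81.2 at 30 min, and 128.2 and 55.4 at 60 min. In labeled RNA they were 107.9 and 148.4, 104.6 and 97.7, and 55.6 and 144.6. The 2 replicates at 60 min lay further apart than any 2 group means. The difference of 60 against 15 min was -0.47 in total RNA (95% interval -1.58 to 0.63) and -0.49 in labeled RNA (-1.59 to 0.61), so neither a fall by more than 1 nor a rise by 0.6 on the log2 scale was excluded.

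Hspa1a differed between 60 and 15 min by -0.19 in total RNA (95% interval -1.22 to 0.83) and by -0.44 in labeled RNA (-1.47 to 0.58) in the fit without a filter. Hspa1b differed by -0.14 (-1.18 to 0.90) and -0.65 (-1.69 to 0.39). An increase of the inducible HSP70 genes from 15 to 60 min by more than 0.90 on the log2(value + 1) scale in total RNA was outside both intervals. This bound does not cover a change before 15 min. Both genes lie below the filter, where this scale understates changes, and the division of reads between them is uncertain. The mean abundance of Hspa1a at 60 min was 11.4 in total and 11.6 in labeled RNA, below that at 15 min in both.

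Hsph1 differed between 60 and 15 min by -0.24 in total RNA (95% interval -0.84 to 0.35) and by -0.15 in labeled RNA (-0.75 to 0.44). Hsp90aa1 differed by 0.10 (-0.26 to 0.46) and 0.07 (-0.29 to 0.42). Among constitutive members Hspa8 differed by 0.07 (-0.43 to 0.58) and -0.23 (-0.74 to 0.27), and Hsp90ab1 by -0.06 (-0.51 to 0.39) and 0.01 (-0.44 to 0.46). Hspd1 and Hspe1 stayed within intervals of -0.57 to 0.63 in both kinds of RNA. Hspa5 differed by 0.28 (-0.51 to 1.06) in total and by -0.11 (-0.90 to 0.68) in labeled RNA. In total RNA the 3 tested inducible members had a median of -0.24 and the 5 constitutive members one of 0.07, and in labeled RNA the medians were -0.15 and -0.11. With 2 libraries per time, a member had to change by well over its replicate spread to be called.

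**Figure D4:**
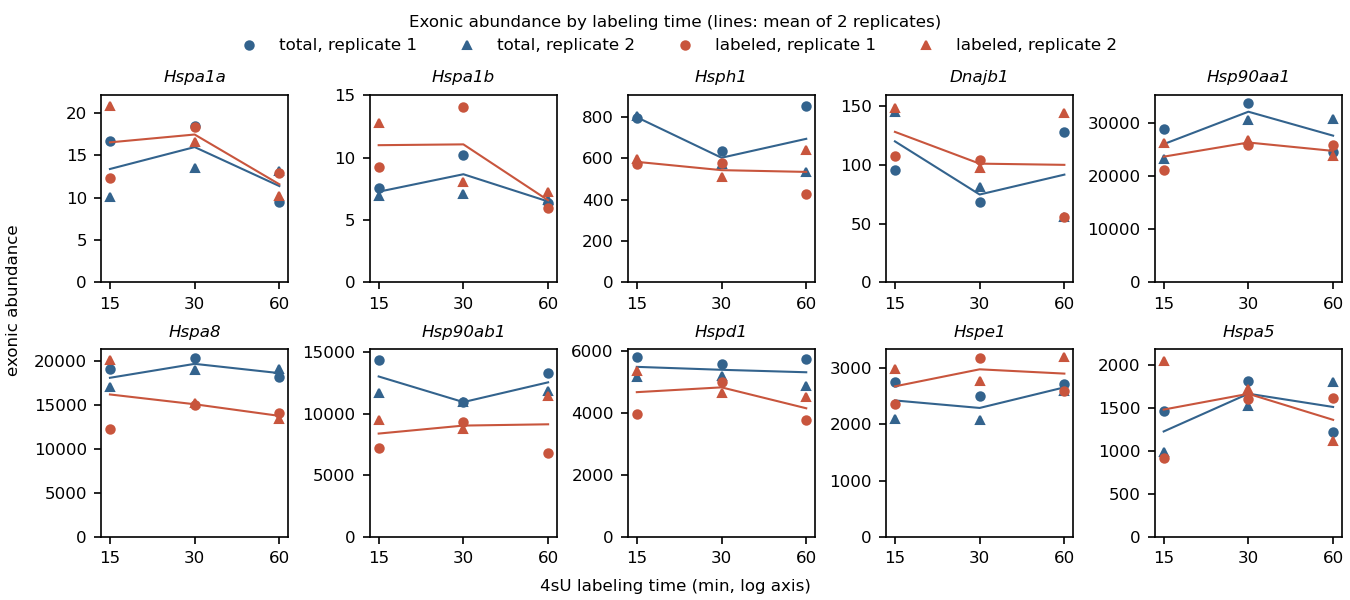
Exonic abundance of the longest coding transcript of each gene against labeling time (log axis), with replicate 1 as circles, replicate 2 as triangles and lines through the mean of both, in total RNA (blue) and labeled RNA (red). No member passed the test between times, and Dnajb1 at 60 min spans from 55.4 to 144.6.

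Other chaperone genes, in lists drawn up by function, were compared between labeled and total RNA in the same fit. Their counts stand against 11.6% of all genes lower and 5.28% higher in exons, with a median of -0.05, and against 32.3% higher and 0.329% lower in introns, with a median of 0.65. Of 17 tested genes of the heat shock response outside the set, 2 were lower in exons, a share near that of all genes. They were Hspa4 (-0.61 ± 0.08, adjusted p = 0.00145), an exchange factor of the HSP110 family, and Fkbp4 (-0.46 ± 0.12, adjusted p = 0.0216), an HSP90 partner. Their median was -0.21. Hsf1 itself differed by -0.25 (95% interval -0.65 to 0.14), and Hspb1, a small heat shock protein, by -0.40 (-0.78 to -0.02, adjusted p = 0.133). In introns, 6 of 10 tested genes of this list were higher, among them Fkbp4 (1.48 ± 0.23) and Hspb8 (1.43 ± 0.30).

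In the same comparison, where 11.6% of all genes were lower and 5.28% higher in exons and 32.3% higher in introns, the cochaperones and chaperonins were counted next. Of 28 tested HSP70 and HSP90 cochaperones, 5 were lower and 1 higher in exons of labeled RNA, with a median of -0.19. Ptges3 (p23), which stabilizes the closed form of HSP90, had the lowest value of the list (-1.15 ± 0.12, adjusted p = 0.000449), followed by Bag6 (-0.71 ± 0.09), while Dnajb5 was higher (0.85 ± 0.14). In introns 5 of 22 of these were higher and none lower, a smaller share than among all genes, and their median was 0.47 against 0.65. Of 13 subunits of the cytosolic chaperonin TRiC and of prefoldin, which hands it actin and tubulin, 4 were lower and none higher, Cct6a (-0.61), Vbp1 (-0.52), Cct2 (-0.31) and Cct5 (-0.29), with a median of -0.11. In introns 8 of 12 of this list were higher, up to Pfdn4 (1.47 ± 0.24), with a median of 0.84.

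Of 19 endoplasmic reticulum chaperones and stress genes, 5 were lower and 2 higher in exons of labeled RNA, where 11.6% and 5.28% of all genes were. The 2 higher genes were Herpud1 (1.09 ± 0.13), a membrane protein of the degradation pathway, and Xbp1 (0.80 ± 0.18), a transcription factor of the unfolded protein response, which are not folding factors. Pdia4 (-0.75 ± 0.13), a disulfide isomerase, and Canx (-0.75 ± 0.09), a lectin chaperone, were the lowest. Hsp90b1, the HSP90 of this compartment, differed by -0.23 (95% interval -0.47 to 0.00, adjusted p = 0.155). Of 11 mitochondrial chaperones and proteases, Grpel1, an exchange factor of the mitochondrial HSP70, was higher (0.61 ± 0.12) and Clpx, an unfoldase, lower (-0.50 ± 0.12), and Hspa9, that HSP70, differed by -0.26 (-0.54 to 0.01). The medians of these 2 lists were -0.16 and -0.13, against -0.05 over all genes. In introns 5 of 15 genes of the first were higher and 1 lower, and 4 of 9 of the second were higher, where 32.3% of all genes were higher, and the medians of 0.72 and 0.68 were near the 0.65 of all genes. At 60 against 15 min, 0 genes of these 5 lists were called by limma in either kind of RNA, as among all genes.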

How the data were processed

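RNA of mESCs after 15, 30 or 60 min of 4sU was sequenced as total and labeled RNA, 12 libraries. The authors removed rRNA reads with STAR 2.5.0, aligned the rest to exons and introns (build mm10 per the labels) and ran RSEM. What they deposited is a signal, length-normalized abundances of about 20 times TPM, in which values of 1 or less are missing (smallest 1.01). The scale and the cutoff are not given in the sources used here. Depth is unknown, so precision rests on the replicates.

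Missing values were taken as 0. Transcripts were assigned to genes with GENCODE M1, which held 83847 of 111672 Ensembl transcripts (75.1%), and loci and promoters come from RefSeq GRCm38.p6. Values were summed per gene, filtered at a mean of 20 and compared as log2(value + 1), which understates changes of low genes, with limma 3.58.1 (mean-variance trend, R 4.3.3), all 12 libraries in each fit and Benjamini-Hochberg adjustment over all genes at 0.05. The design had planned a count test in case the files held counts. Alternatives were another pseudocount, no filter, other scalings, transcripts as features, a replicate block and leaving out libraries. The replicate block was the pair of one time and replicate number between labeled and total RNA, and the replicate number in fits over time. One transcript a gene, alone and centred, and leaving out both labeled libraries of low intronic share were added after the values had been seen. Scripts were tested on simulated data. The labels give the pairing, since a replicate number marks one of 2 cultures. Deviations from the group means, taken between labeled and total RNA of one number, correlated at -0.07, 0.05 and -0.19 at 15, 30 and 60 min. Replicates are split cultures of 1 line, and the main fits treat the 12 libraries as independent. The p-values therefore measure the spread between libraries from these 2 cultures. All 10 members are named, and of the other lists the called genes with the largest differences and the factors of each pathway. The members and lists were chosen with earlier results of these data known. Python 3.11.15, scipy 1.17.1 and matplotlib 3.10.9 were used for the rest.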

Additional observations from a re-analysis of the deposited data

Results flagged for a closer look

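In 60 groups of 6 libraries, formed by member, kind of RNA, exons or introns and kind of value, 5 held a library further from the others than Dixon's 95% limit, where chance gives about 3. Hsp90ab1 had a summed exonic abundance of 55351 in total replicate 1 at 15 min, against 47406 to 49869 in the other total RNA libraries. Hspa1b had an exonic abundance of 10.2 in total replicate 1 at 30 min, against 6.35 to 7.60. Hspa8 had an exonic abundance on its longest coding transcript of 20142 in labeled replicate 2 at 15 min, against 12325 to 15222 in the other labeled libraries, and this library has one of the low intronic shares. Hsph1 introns had 25.8 in total replicate 1 at 60 min, against 18.2 to 20.8. Hspe1 introns had 25.9 in labeled replicate 2 at 60 min, against 51.4 to 64.0, and this is the other library of low intronic share. The part of that share in the Hspa8 and Hspe1 values was not tested.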

How the results depend on the processing

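Between labeled and total RNA in exons, the replicate block, which pairs libraries of one time and replicate number, called 1270 genes and 1 member in place of 2353 and 3. Transcripts in place of genes gave 6269 calls among 34196 transcripts, where the main fit tested 13977 genes. No filter gave 0 members, one transcript a gene 1 member and the same centred 0 members. Leaving out libraries gave 0 to 3238 genes and 0 to 4 members, with 0 members when a whole replicate was left out. Hsp90aa1 lost its call without total replicate 1 at 15 min, either total replicate at 30 min, total replicate 2 at 60 min, labeled replicate 1 at 15 min or either labeled replicate at 30 min, and Hspd1 kept its call only without labeled replicate 2 at 15 or 60 min. In introns the main fit called 2976 of 9117 genes and no filter 4659 of 20368. Centring called 1712 of 9117 and 3 members, and the same total 1898 of 9117 and 3 members. One transcript a gene called 1249 of 3740, or 1087 when also centred. Leaving out libraries gave 1094 to 8141 genes and 2 to 5 members. For the intron to exon ratio centring gave 878 of 7731 genes and 1 member, and one transcript a gene 1055 of 3239 genes (616 and 3 members when also centred). Leaving out libraries gave 252 to 6433 genes and 0 to 6 members for the ratio.

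Over time, exons of total RNA at 60 against 15 min gave 4 calls with a pseudocount of 20, 8 without the filter, 3 centred, 2 over transcripts and 0 to 11 with libraries left out. Labeled RNA gave 6 without the filter and 0 to 30 with libraries left out. Introns of total RNA gave 1 without the filter and 0 to 5 with libraries left out, and those of labeled RNA 0 to 1. At 30 against 15 min total RNA gave 4 alternatives with 3, 10, 3 and 2 calls (pseudocount, no filter, centred, transcripts) and 0 to 16 with libraries left out. Labeled RNA gave 5 with the pseudocount, 11 without the filter, 0 with the replicate block and with one transcript a gene, and 0 to 30 with libraries left out. The interaction gave 4 with the pseudocount, 8 without the filter and 0 to 32 with libraries left out. No member was called in any of these.

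Signs reversed for members that were not called. In exons between labeled and total RNA, Hspa5 was 0.0053 centred, 0.031 at the same total and 0.013 on one transcript (0.14 when also centred), with -0.17 to 0.091 over libraries left out, and Dnajb1 was -0.019 on one transcript without both labeled libraries, with -0.14 to 0.56. In introns, Hsp90ab1 was -0.67 centred, -0.50 at the same total and -0.29 over transcripts, with -0.050 to 0.12, and Hspa8 was 1.52 on one transcript, 1.66 also without both labeled libraries and 0.87 also centred. The ratio was -0.53 for Hspa8 and -0.22 for Hsp90ab1 when centred. In total RNA at 60 against 15 min, Hsp90aa1 was -0.022 over transcripts, and libraries left out gave -0.58 to 0.10 (Hsph1), -1.07 to 0.12 (Dnajb1), -0.017 to 0.22 (Hsp90aa1), -0.041 to 0.19 (Hspa8), -0.16 to 0.042 (Hsp90ab1), -0.22 to 0.085 (Hspd1) and -0.052 to 0.36 (Hspe1). In labeled RNA, Hsp90aa1 was -0.0078 over transcripts, Hsp90ab1 -0.018 at the same total and Hspa5 0.010 centred, and libraries left out gave -0.45 to 0.14 (Hsph1), -1.17 to 0.19 (Dnajb1), -0.084 to 0.29 (Hsp90aa1), -0.59 to 0.28 (Hspa8), -0.25 to 0.27 (Hsp90ab1), -0.35 to 0.053 (Hspd1), -0.080 to 0.29 (Hspe1) and -0.61 to 0.72 (Hspa5). The cause was not tested for any of these. The replicate block changed no other call of a member.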
